A study of Mus musculus with 18 samples.

Results

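Imprinted genes, those whose transcript comes mainly from the copy inherited from 1 parent, were followed through blood progenitors of the mouse in which the maintenance DNA methyltransferase Dnmt1 carries a mutation. The members are a list of 48 symbols known as imprinted in the mouse, matched to the symbols of the deposited count tables. Of these, 46 had a row among the 29717 genes of the tables, and Snurf and Kcnq1 were not analysed here. The 18 libraries hold lineage-negative bone marrow cells of BALB/c mice, sorted into populations labelled HSC (haematopoietic stem cells), MPP1 and MPP4 (multipotent progenitors, MPP4 being a name used for lymphoid-primed cells). Mutant libraries, whose genotype field reads dnmt1-/-, numbered 3 in HSC, 2 in MPP1 and 4 in MPP4, and wild-type controls (wt) numbered the same in each population. The series text speaks of hypomorphic missense changes found in fish, and of 1 specific mutation then made in mice, and it reports less methylated DNA in lineage-negative marrow of these mice. Age, sex and the number of animals are not given in the labels. The count tables tag every library with 1 of 8 ID numbers, 4 of each genotype, and up to 3 populations share a number. They are named here by genotype and sequencing batch as mutant A, mutant B, mutant C1 and mutant C2, and as control A, control B, control C1 and control C2. Mutant A holds HSC mutant 1 and MPP4 mutant 1, mutant B holds MPP4 mutant 2, mutant C1 holds HSC mutant 3, MPP1 mutant 1 and MPP4 mutant 3, and mutant C2 holds HSC mutant 2, MPP1 mutant 2 and MPP4 mutant 4. Control A holds HSC control 1 and MPP4 control 1, control B holds MPP4 control 2, control C1 holds HSC control 2, MPP1 control 1 and MPP4 control 3, and control C2 holds HSC control 3, MPP1 control 2 and MPP4 control 4. Nothing in the labels says that an ID number is an animal, so p-values measure only the spread among libraries, part of which may be technical.

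Genomic imprinting rests on DNA methylation that is laid down in 1 parent's germ line at control regions and is afterwards copied at each cell division, chiefly by Dnmt1 with its partner Uhrf1, while zinc finger proteins such as Zfp57 with the corepressor Trim28 keep the mark through early development. The genes lie in clusters, in which a methylated control region, an insulator or a long noncoding RNA keeps neighbouring genes active on only 1 chromosome. Several members restrain or promote growth, and imprinted growth regulators such as Grb10, Ndn, Cdkn1c and the Dlk1-Meg3 cluster are known for their expression in stem cells of the blood. In many genes of such clusters the imprint holds in only some tissues, such as brain or placenta. Parental copies cannot be told apart in these data, because the strain is inbred and the libraries read only the 3′ ends of transcripts.

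Levels are in CPM, the count of a gene per 1000000 counts of its library, scaled by the TMM factors of edgeR. The libraries were made by CEL-Seq2, which reads 1 tag per captured molecule, so levels of different genes are compared without division by length. Libraries held 354642 to 1943562 counts, with a median of 745850.5. Some libraries stood apart in markers of other cell types. Erythroid markers summed to 189464 CPM in MPP4 mutant 2, 13436 CPM in HSC mutant 1, 32462 CPM in MPP1 control 2 and 29853 CPM in MPP4 control 4. Neutrophil markers summed to 30739, 1784, 7989 and 3396 CPM in the same libraries in this order, and to at most 788 CPM elsewhere. B cell markers summed to 11826 CPM in MPP4 mutant 3 and 35699 CPM in HSC control 1. Ribosomal protein genes took 19.3% of the counts of HSC mutant 1 and 21.5% of those of MPP4 mutant 1, both of mutant A, and between 6.26% and 14.4% elsewhere. The part of these markers in the results was not tested, but each library was left out in turn. The label MPP4 was checked against markers: of 6 stem cell markers 5 had lower levels in the MPP4 controls than in the HSC controls, and all 4 markers of MPP4 had higher ones (edgeR adjusted p under 0.05).

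Of the 46 imprinted genes with a row, 21 had a count in all 18 libraries, 7 had between 1 and 10 counts over all libraries together, and Nap1l5 had none. An expression filter left 28 for testing in at least 1 comparison, 18 of them transcribed mainly from the maternal copy in textbook accounts and 10 from the paternal copy, and 20 in every population. The 18 that were not tested had at most 48 counts over all libraries, the total of Igf2, and include the classical fetal and placental members H19, Peg3, Peg10, Mest, Plagl1 and Ascl2. Gnas, which encodes the stimulatory G protein alpha subunit, had the highest mean level, with 872 ± 160.1 CPM in HSC controls (SD, n = 3) and 1135 ± 337 CPM in MPP4 controls (SD, n = 4). Kcnq1ot1, the paternal antisense RNA that silences its neighbours in the Kcnq1 cluster, followed with 723 ± 168 CPM in HSC controls (SD, n = 3). Meg3, a maternal noncoding RNA, averaged 586 ± 514 CPM there (SD, n = 3), with single libraries from 47.0 to 1072 CPM, so its place in the order is not set. The ubiquitin ligase gene Ube3a, the tetraspanin gene Cd81 and H13, which encodes the signal peptide peptidase, were at 278 ± 61.1, 314 ± 49.3 and 229 ± 32.1 CPM in HSC controls (SD, n = 3 each). Ube3a differed from each of the other two by less than its own SD. The least abundant tested members rest on few counts. Snrpn, the small nuclear ribonucleoprotein gene of the Prader-Willi cluster, had 0 to 16.3 CPM in a library, and Phlda2 0 to 18.7 CPM.

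**Figure D1:**
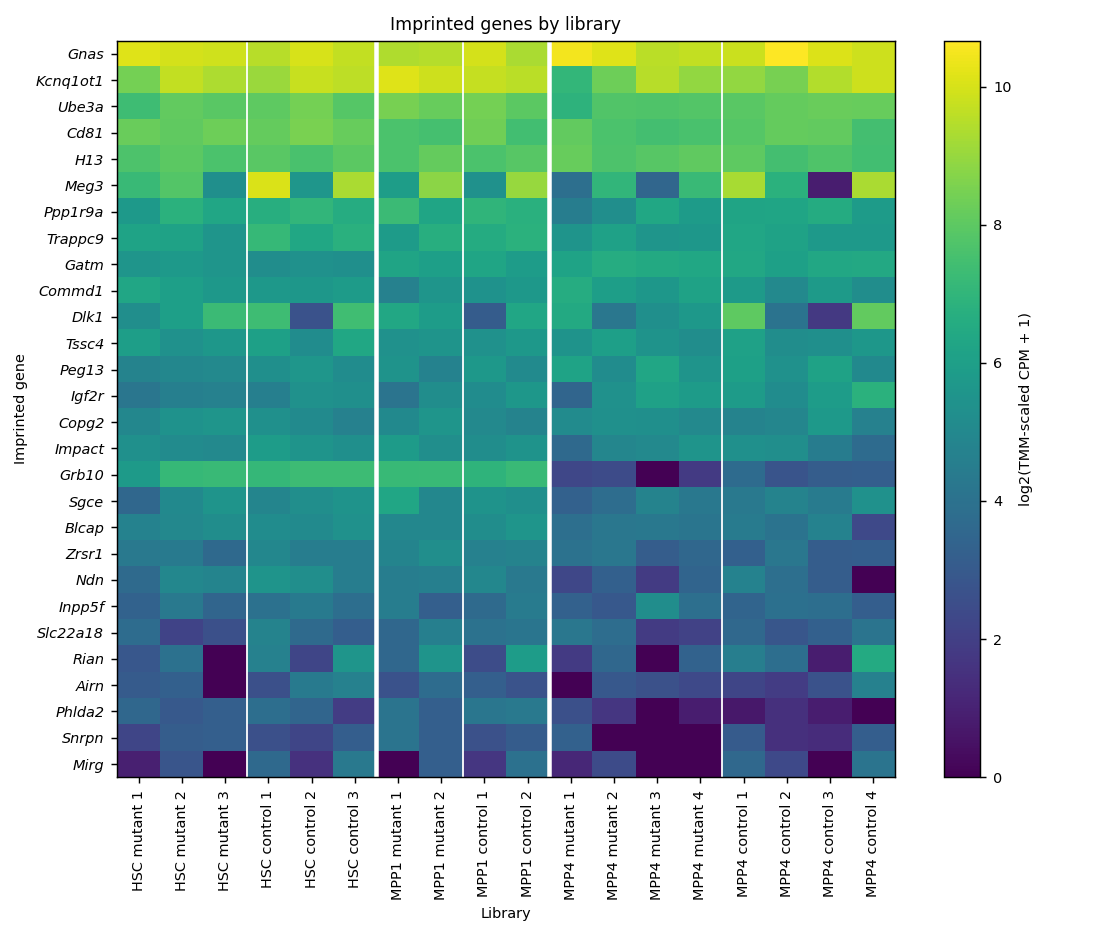
Heat map of the 28 tested imprinted genes (rows, ordered by mean level) in the 18 libraries (columns, mutants left of controls within HSC, MPP1 and MPP4), with colour giving log2(TMM-scaled CPM + 1). Grb10 is dark in all 8 MPP4 libraries and bright elsewhere, and Meg3 changes colour between libraries of the same group.

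Between populations of control marrow, 7 of the 27 imprinted genes tested differed for MPP4 against HSC (edgeR adjusted p under 0.05), 5 lower and 2 higher in MPP4. Of all genes tested, 9.82% differed, 4% lower and 5.82% higher. The share among imprinted genes is above that background, but the members were chosen with results of these data known and no test of the list was made. The 5 that were lower were Grb10, Phlda2, Ndn, Zrsr1 and Trappc9, and the 2 that were higher were Igf2r and Gatm. These differences, like all between populations below, were fitted within ID numbers. MPP4 control 2, the only library of control B, therefore carries no weight in them, although its level is listed. MPP1 controls exist only in controls C1 and C2. In these bulk samples, fewer cells of a type and less RNA per cell cannot be told apart. Between MPP4 and MPP1 controls, 4 members differed, Grb10, Phlda2, Zrsr1 and Trappc9, all lower in MPP4, where 3.58% of all genes differed and 1.72% were lower. Between MPP1 and HSC controls no member passed the threshold in edgeR, where 0.236% of genes did; 1 member, Gatm, had an unadjusted p under 0.05 (0.00604), where 5.34% of all genes had one.

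Grb10, an adaptor that binds insulin and IGF receptors and damps their signalling, is expressed from the maternal copy in most tissues and lies on chromosome 11 (11930508 to 12038683, minus strand, GRCm38). It had 12.4, 5.85, 7.90 and 8.17 CPM in MPP4 controls, against 138, 159 and 158 CPM in HSC controls and 123 and 149.5 CPM in MPP1 controls. Every MPP4 control lay far below every control of the other populations, so the groups did not overlap. Of all genes, 7.63% lay lower in MPP4 controls without overlapping the HSC controls; among the 27 imprinted genes tested 6 did, namely Blcap, Grb10, Phlda2, Ppp1r9a, Trappc9 and Zrsr1. The log2 difference of Grb10 was −3.87 for MPP4 against HSC (SE 0.30, edgeR adjusted p = 2.16e-11) and −3.68 for MPP4 against MPP1 (SE 0.34, adjusted p = 3.87e-09). It stayed past the threshold under all alternatives run for both contrasts, the weakest adjusted p being 6.06e-08 and 5.1e-05. The mutants had the same order, with 3.83, 4.37, 0 and 2.49 CPM in MPP4, 55.5, 140.1 and 150.3 CPM in HSC and 143.98 and 150.2 CPM in MPP1; the 0 is MPP4 mutant 3, where no count allows a level of up to 7.78 CPM (3 counts, counting error only).

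RefSeq (GRCm38.p6) gives Grb10 2 promoters of differing base composition, shown because this member had the lowest p between populations; each window runs from 250 bases before to 50 after a transcript start, 5′ to 3′ on the minus strand, with CG dinucleotides, the substrate of Dnmt1, in capitals. The window at chr11:12037371-12037670 holds 45 CG and 1 match to TGCCGC, the hexamer recognised by Zfp57, while that at chr11:12027922-12028221 holds 9 CG and no match.
Grb10 upstream promoter: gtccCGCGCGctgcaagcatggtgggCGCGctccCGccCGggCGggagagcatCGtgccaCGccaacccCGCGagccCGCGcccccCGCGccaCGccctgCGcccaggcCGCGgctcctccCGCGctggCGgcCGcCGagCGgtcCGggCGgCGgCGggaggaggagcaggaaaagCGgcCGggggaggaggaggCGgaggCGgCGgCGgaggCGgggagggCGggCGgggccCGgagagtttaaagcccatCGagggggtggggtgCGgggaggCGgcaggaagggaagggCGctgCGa
Grb10 downstream promoter: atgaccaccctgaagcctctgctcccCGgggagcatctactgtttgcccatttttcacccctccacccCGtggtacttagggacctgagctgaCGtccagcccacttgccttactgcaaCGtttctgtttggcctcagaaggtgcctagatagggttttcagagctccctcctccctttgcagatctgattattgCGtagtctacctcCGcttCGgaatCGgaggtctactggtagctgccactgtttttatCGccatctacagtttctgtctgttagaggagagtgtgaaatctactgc
Searched on both strands (GCGGCA on the other, with no overlap between the 2 forms), the hexamer occurred in 11.6% of all 32851 promoter windows and in 20.7% of the 58 windows of the 39 imprinted genes found in the table. It occurred in 14.7% of the 34 windows of tested imprinted genes and in 14.3% of the 7 windows of those called between control populations. Overlapping windows, as in Mest, were each counted. The median number of CG was 14.5 in the windows of imprinted genes and 7 in all windows. A match describes these letters only, and the counts do not tell which promoter was used.

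Phlda2, a maternally expressed gene of the Kcnq1 cluster that limits placental growth, had 0.62, 1.80, 0.79 and 0 CPM in MPP4 controls, against 13.3, 10.1 and 2.73 CPM in HSC controls and 17.3 and 18.7 CPM in MPP1 controls. All MPP4 controls lay below all others, but they hold only 6 counts in all, and the 0 belongs to MPP4 control 4, where no count allows up to 12.3 CPM. The log2 difference was −3.76 for MPP4 against HSC (SE 1.01, edgeR adjusted p = 0.0116) and −4.99 for MPP4 against MPP1 (SE 1.07, adjusted p = 0.00336). Both calls were lost without control C1 (edgeR adjusted p = 0.191 against HSC and 0.216 against MPP1), and the call against HSC also without control A (edgeR adjusted p = 0.188).

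Ndn encodes necdin, a growth suppressor of the MAGE family known in quiescent stem cells, and is transcribed from the paternal copy. Its levels were 25.4, 14.0, 7.90 and 0 CPM in MPP4 controls, against 44.9, 37.8 and 21.8 CPM in HSC controls. The 0 belongs to MPP4 control 4, where no count allows up to 12.3 CPM. The highest MPP4 library overlapped the lowest HSC library. The log2 difference of Ndn was −1.58 (SE 0.41, edgeR adjusted p = 0.00866), and the call was lost without control C1 (adjusted p = 0.294) and when batch replaced the ID number in the fit (0.115). Zrsr1, a paternally expressed splicing factor gene inside an intron of Commd1, had 8.68, 18.01, 7.90 and 8.17 CPM in MPP4 controls, against 29.95, 22.1 and 21.8 CPM in HSC controls and 24.8 and 26.2 CPM in MPP1 controls. No MPP4 control reached the level of an HSC or MPP1 control, but the 8.17 CPM of MPP4 control 4 rest on 2 counts. The highest of them, MPP4 control 2, carries no weight in the fitted differences. The log2 difference of Zrsr1 was −1.59 for MPP4 against HSC (SE 0.41, edgeR adjusted p = 0.0085) and −1.74 for MPP4 against MPP1 (SE 0.47, adjusted p = 0.0279). The call against HSC was lost without control A or control C1 (edgeR adjusted p = 0.142 and 0.0999), and that against MPP1 without control A, C1 or C2 (edgeR adjusted p = 0.0937, 0.466 and 0.114) and with no filter on low counts (0.056).

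Trappc9 encodes a subunit of a vesicle tethering complex and is favoured on the maternal copy in brain. Its levels were 77.5, 68.9, 51.4 and 53.1 CPM in MPP4 controls, against 139.8, 81.1 and 109 CPM in HSC controls and 92.6 and 112.1 CPM in MPP1 controls. The groups did not overlap, although the gap to the lowest HSC control was small. The log2 difference of Trappc9 was −0.81 for MPP4 against HSC (SE 0.22, edgeR adjusted p = 0.0119) and −0.93 against MPP1 (SE 0.26, adjusted p = 0.0309), and both calls were lost when control A, C1 or C2 was left out (adjusted p = 0.138, 0.0803 and 0.0623 against HSC). Peg13, a paternal noncoding RNA, had a log2 difference of 0.54 for MPP4 against HSC (SE 0.27, edgeR adjusted p = 0.262), which did not pass. It lies within Trappc9 on the same strand, and the gene spans, introns included, share 4725 bases. The overlap of exons was not computed, and reads of the shared stretch could have been counted for either gene.

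Igf2r and Gatm went the other way. Igf2r, the maternally expressed receptor that clears insulin-like growth factor 2 and sorts lysosomal enzymes, had 57.0, 35.6, 57.7 and 110.3 CPM in MPP4 controls, against 23.3, 40.5 and 38.2 CPM in HSC controls. MPP4 control 2 lay below 2 HSC controls, so the groups overlapped. That library carries no weight in the fitted difference. The log2 difference of Igf2r was 1.01 (SE 0.32, edgeR adjusted p = 0.0349), and leaving out control A, C1 or C2 ended the call (adjusted p = 0.236, 0.0612 and 0.201), as did a fit with batch and not the ID number (0.114). Gatm, which encodes the first enzyme of creatine synthesis and is imprinted in placenta, had 83.1, 66.6, 82.2 and 85.8 CPM in MPP4 controls, against 36.6, 40.5 and 38.2 CPM in HSC controls. All MPP4 controls lay above all HSC controls, the only tested member higher without overlap, where 8.32% of all genes were. The log2 difference of Gatm was 1.10 (SE 0.24, edgeR adjusted p = 0.00165), and the call held under all alternatives run, with a weakest adjusted p of 0.0417.

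**Figure D2:**
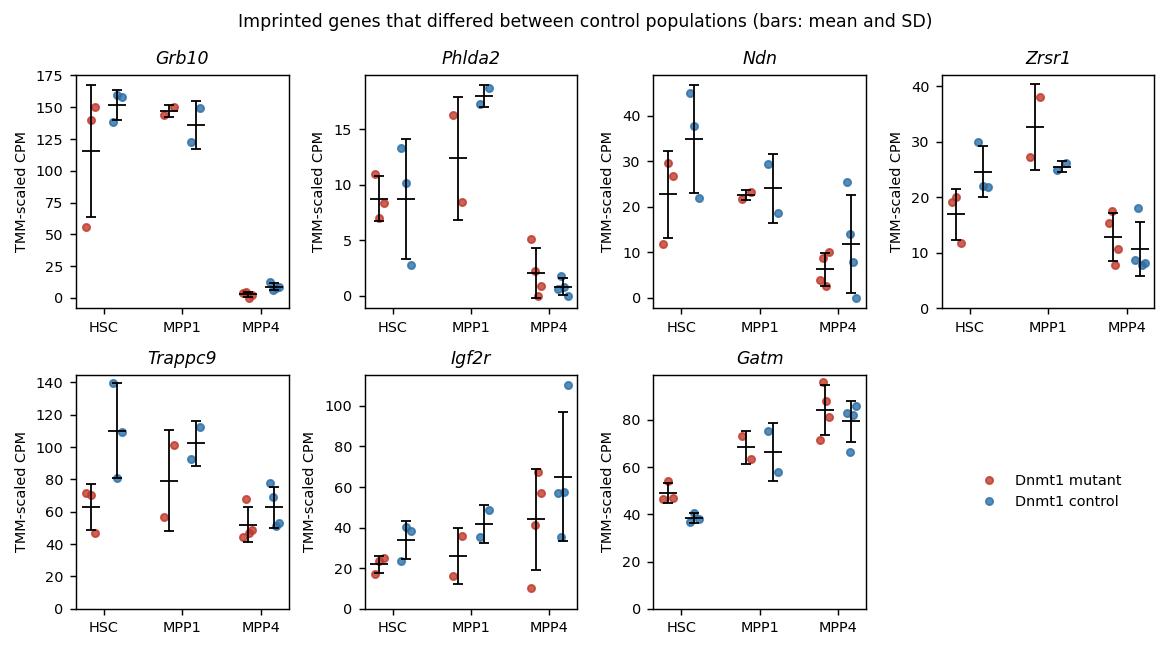
Levels in TMM-scaled CPM (linear axes) of the 7 imprinted genes that differed between control populations, in HSC, MPP1 and MPP4. Points are libraries, red mutants left of blue controls, and bars give mean and SD. Grb10 is at or below 12.4 CPM in all MPP4 libraries, and Gatm is lowest in HSC.

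The machinery that keeps imprints was followed through a list of 26 genes. Of its 21 tested members, 4 were higher in MPP4 than in HSC controls and none lower (edgeR adjusted p under 0.05), where 5.82% of all genes were higher and 4% lower. In edgeR these were Dnmt1 (log2 difference 0.83, SE 0.20, adjusted p = 0.00506), its partner Uhrf1 (1.44, adjusted p = 5e-05), the chromatin remodeller Hells (1.32, adjusted p = 0.000121) and the H3K27 methyltransferase Ezh2 (1.26, adjusted p = 4.24e-05). Uhrf1 and Ezh2 lay higher without overlap, as 8.32% of all genes did, while Dnmt1 and Hells overlapped. For each of these genes HSC control 1, high in B cell markers, was the lowest HSC control. These calls were not rerun with a number left out. Neither Trim28 (0.30, edgeR adjusted p = 0.454) nor the insulator protein gene Ctcf (0.24, adjusted p = 0.584) passed, and Zfp57 was too low to test, with 0 to 5.43 CPM in a library. Of 34 further imprinted genes outside the 48, 14 were tested and 2 differed, where 9.82% of all genes did: the cell cycle inhibitor gene Cdkn1c was lower in MPP4 (−2.51, SE 0.40, edgeR adjusted p = 2.94e-05), the phospholipid flippase gene Atp10a was higher (1.22, SE 0.35, adjusted p = 0.0202), and the other 12 did not pass.

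Between mutants and controls, none of the imprinted genes passed the threshold in any population or after the libraries of each ID number were summed. In edgeR, 0.241% of genes were called in HSC, 0.225% in MPP1, 0.0852% in MPP4 and 0.227% over the ID numbers. At an unadjusted p under 0.05 there were 1 imprinted gene of 23 in HSC (10% of all genes), 0 of 23 in MPP1 (4.86%), 4 of 21 in MPP4 (7.11%) and 3 of 27 over the ID numbers (6.98%). A p that misses the threshold does not show that levels were alike. DESeq2 also called no imprinted gene in any of the 4 comparisons.

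The signs were uneven in HSC. There 19 of 23 imprinted genes had a fold change below 0, with a median log2 fold change of −0.36, where 48.7% of all genes tested were below 0 with a median of 0.01. All 8 members listed as paternally expressed were below 0 (median −0.44), and 11 of the 15 listed as maternally expressed (median −0.24). All 13 members with a broad imprint were below 0 (median −0.50), and 6 of the 10 whose imprint is restricted to some tissues (median −0.16). Dlk1, a paternal member with a broad imprint, turned above 0 with batch C alone (0.59) and without HSC control 3 (0.59). Neither of the counts that include all members of a class held in those settings. Of the listed symbols with a restricted imprint, 14 are maternal and 1 is paternal, so these splits overlap. The median over the imprinted genes tested was −0.17 when HSC mutant 1 or HSC control 1 was left out, or with batch C alone. A lone library of batch A is taken up by the batch term, so these settings all rest on the same batch C libraries and are not separate checks. HSC mutant 1 and HSC control 1 are the libraries of batch A. Erythroid markers summed to 13436 CPM in that mutant and B cell markers to 35699 CPM in that control, and the part of these markers was not tested. Among the 20 imprinted genes with a mean of at least 20 CPM, 16 had a lower level in the mutant of batch A than in its control (median log2 difference −0.53, 45.0% of all genes), and 14 did in batch C (median −0.15, 47.9% of all genes). With the replicate number as a block, 40 genes were called, against 22 without it, and 19 of 23 imprinted genes were below 0 with none called. In MPP1, 12 of 23 were below 0 (median −0.06, 50.4% of all genes). In MPP4, 14 of 21 were (median −0.14, 50.5% of all genes), and over the ID numbers 23 of 27 were (median −0.22, 49.4% of all genes). The splits differed from HSC. Paternal, maternal, broad and restricted members below 0 were 3 of 8, 9 of 15, 5 of 13 and 7 of 10 in MPP1. In MPP4 they were 4 of 7, 10 of 14, 7 of 11 and 7 of 10. Over the ID numbers they were 10 of 10, 13 of 17, 16 of 17 and 7 of 10. The populations share ID numbers, so these counts are not independent of each other.

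Trappc9 had the lowest unadjusted p in HSC. Its levels were 71.9, 70.5 and 46.8 CPM in HSC mutants, against 139.8, 81.1 and 109 CPM in HSC controls. All mutants lay below all controls there, as did those of Peg13 and Zrsr1 among the 23 imprinted genes tested; of all genes 4.35% did so. The log2 fold change of Trappc9 was −0.76 in HSC (SE 0.26, edgeR unadjusted p = 0.00703, adjusted p = 0.32). Summed by ID number, Trappc9 had 60.9, 68.9, 49.4 and 66.5 CPM in mutants A, B, C1 and C2, against 94.2, 69.8, 75.0 and 98.1 CPM in controls A, B, C1 and C2. Of the 27 imprinted genes tested over the ID numbers, it was the one whose mutants and controls did not overlap, where 1.13% of all genes were lower and 0.953% higher without overlap, and its log2 fold change was −0.46 (SE 0.20, edgeR adjusted p = 0.673). In MPP4 the value was −0.27 (SE 0.25, edgeR adjusted p = 0.905) and in MPP1 −0.32 (SE 0.31, adjusted p = 0.999).

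Neighbouring pairs gave mixed values. Peg13 had 26.4, 29.6 and 31.7 CPM in HSC mutants, against 38.3, 47.0 and 35.4 CPM in HSC controls, a log2 fold change of −0.51 (SE 0.32, edgeR adjusted p = 0.614), and 0.02 in MPP4 (SE 0.28, adjusted p = 0.994). Zrsr1 had a log2 fold change of −0.50 in HSC (SE 0.39, edgeR adjusted p = 0.698) and of 0.38 in MPP1 (SE 0.43, adjusted p = 0.999). Its host gene Commd1, a regulator of copper handling and NF-kB that lies on the opposite strand, had 97.0, 61.2, 49.3 and 70.5 CPM in MPP4 mutants, against 55.8, 31.5, 54.5 and 36.8 CPM in MPP4 controls. The groups overlapped in MPP4 mutant 3. The log2 fold change of Commd1 in MPP4 was 0.63 (SE 0.25, edgeR unadjusted p = 0.0232, adjusted p = 0.598), against −0.33 in MPP1 (SE 0.40, adjusted p = 0.999). The gene spans of Zrsr1 and Commd1, introns included, share 4492 bases, and the overlap of their exons was not computed. Whether counting used the strand is not given in the sources used here, so reads of this pair may not be separable.

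In the Snrpn cluster, Ube3a, which is maternally expressed in neurons, had 119, 219, 213 and 224 CPM in MPP4 mutants, against 242, 285, 302 and 294 CPM in MPP4 controls. All 4 mutants lay below all 4 controls, the only imprinted gene tested of which that was so in MPP4 (1.65% of all genes; none was higher without overlap, against 1.45%), and MPP4 mutant 1 lay furthest below. The log2 fold change of Ube3a was −0.58 (SE 0.20, edgeR unadjusted p = 0.0105, adjusted p = 0.475), with −1.02, −0.38 and −0.45 in batches A, B and C. In HSC it was −0.35 (SE 0.24, edgeR adjusted p = 0.649) and in MPP1 0.10 (SE 0.25, adjusted p = 0.999). Ndn had 11.8, 29.6 and 26.7 CPM in HSC mutants, against 44.9, 37.8 and 21.8 CPM in HSC controls, with overlap, and a log2 fold change of −0.72 (SE 0.37, edgeR adjusted p = 0.522).

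In the Peg10-Sgce cluster, Ppp1r9a, which encodes the actin-binding protein neurabin, had 21.7, 37.1, 80.4 and 56.4 CPM in MPP4 mutants, against 73.8, 76.5, 93.3 and 57.2 CPM in MPP4 controls. The mutants of batches A and B were the lowest of the 8, and of those of batch C 1 lay within the control range and 1 just below it. The log2 fold change of Ppp1r9a was −0.80 in MPP4 (SE 0.29, edgeR adjusted p = 0.52) and −0.57 over the ID numbers (SE 0.21, adjusted p = 0.586), the lowest p there among imprinted genes, with −1.72, −1.02 and −0.14 in batches A, B and C of MPP4. Sgce, the paternally expressed epsilon-sarcoglycan gene of the same cluster, had a log2 fold change of −0.69 in MPP4 (SE 0.38, edgeR adjusted p = 0.789) and −0.43 in HSC (SE 0.35, adjusted p = 0.712). Of the Mest pair, Copg2, a coat protein gene, had a log2 fold change of 0.22 in HSC (SE 0.33, edgeR adjusted p = 0.855) and 0.44 in MPP1 (SE 0.41, adjusted p = 0.999), and Mest itself was too low to test.

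In the Igf2r-Airn domain, Igf2r had 17.3, 23.5 and 25.1 CPM in HSC mutants, against 23.3, 40.5 and 38.2 CPM in HSC controls, and summed by ID number 14.4, 42.2, 34.7 and 39.99 CPM in mutants A, B, C1 and C2, against 47.8, 36.0, 44.5 and 58.2 CPM in controls A, B, C1 and C2. Mutants and controls overlapped in both. Its log2 fold change was −0.64, −0.59 and −0.65 in HSC, MPP1 and MPP4, and −0.61 over the ID numbers (SE 0.27, edgeR unadjusted p = 0.0436, adjusted p = 0.705). Airn is the paternal antisense RNA that silences Igf2r in mouse tissues, and their gene spans, introns included, overlap by 28354 bases. Airn passed the filter of the genotype comparisons only in the ID number sums, with a log2 fold change of −0.57 (SE 0.50, edgeR adjusted p = 0.875).

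In the Kcnq1 cluster, Kcnq1ot1 had 133, 317, 742 and 488 CPM in MPP4 mutants, against 484, 352, 684 and 935 CPM in MPP4 controls. The 2 mutants of batches A and B were the lowest of the 8, and the groups overlapped. The log2 fold change of Kcnq1ot1 was −0.69 in MPP4 (SE 0.29, edgeR unadjusted p = 0.0316, adjusted p = 0.643), with −1.86 in batch A, −0.15 in batch B and −0.40 in batch C. Malat1, another nuclear noncoding RNA and no imprinted gene, was likewise low in MPP4 mutant 1 (1142 CPM) and HSC mutant 1 (1163 CPM), both of mutant A, in which Kcnq1ot1 stood at 133 and 343 CPM; its part in the result was not tested. In MPP1 the sign of Kcnq1ot1 was the opposite, with 1127 and 920.2 CPM in mutants, against 855 and 746 CPM in controls. The mutants lay above the controls there, as did those of Copg2 and Zrsr1 among the genes tested, where 16.8% of all genes did, and the log2 fold change was 0.36 (SE 0.29, edgeR adjusted p = 0.999). Of the 23 imprinted genes tested in MPP1, Blcap was the one lower without overlap (17.1% of all genes). Cd81 had a log2 fold change of −0.39 in MPP1 (SE 0.27, edgeR adjusted p = 0.999), with 201 and 184 CPM in mutants, against 326 and 172 CPM in controls.

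The log2 fold change of Grb10 was −0.51 in HSC (SE 0.26, edgeR adjusted p = 0.502) and 0.13 in MPP1 (SE 0.26, adjusted p = 0.999). In HSC, mutant 1 stood at 55.5 CPM, while the other mutants, at 140.1 and 150.3 CPM, lay within the control range of 138 to 159 CPM. Without HSC mutant 1 the fold change of Grb10 was −0.14, and without HSC control 1 it was −0.13, both resting on the same batch C libraries. In MPP4 Grb10 was below the filter, with 8 counts over 4 mutants, against 45 counts over 4 controls, and no mutant (3.83, 4.37, 0 and 2.49 CPM) reached the lowest control (12.4, 5.85, 7.90 and 8.17 CPM). Of the genes past the filter there, 1.65% lay lower without overlap. The 0 of MPP4 mutant 3 allows up to 7.78 CPM (counting error only), above the lowest control, so the separation is not set. In the authors' deposited table the log2 fold change of Grb10 in MPP4 was −0.77 with a p-value of 0.0605. The difference of the mutant effect between MPP4 and HSC was −1.53 for Grb10 (SE 0.63, edgeR unadjusted p = 0.02, adjusted p = 1). In these comparisons of the effect between populations no imprinted gene passed the threshold in edgeR (0.0283% of all genes passed for MPP4 against HSC, and 0% for MPP1 against HSC and for MPP4 against MPP1). At an unadjusted p under 0.05 were Slc22a18 for MPP1 against HSC (4.76% of all genes), Grb10 for MPP4 against HSC (3.88%), and Rian, Grb10 and Kcnq1ot1 for MPP4 against MPP1 (4.39%).

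Gatm had 46.4, 54.0 and 46.8 CPM in HSC mutants, against 36.6, 40.5 and 38.2 CPM in HSC controls. It was the only imprinted gene tested with all HSC mutants above all HSC controls (4.99% of all genes), and its log2 fold change of 0.34 did not pass (SE 0.29, edgeR adjusted p = 0.731). Of the genes that keep imprints and of the further imprinted genes, none was called by edgeR between genotypes in any population or over the ID numbers; at an unadjusted p under 0.05 were 1 of 21 tested imprint keepers in each of the 4 comparisons, and 1 of 13, 2 of 10, 0 of 11 and 1 of 15 further imprinted genes in HSC, MPP1, MPP4 and the sums, where 10%, 4.86%, 7.11% and 6.98% of all genes were. Dnmt1 itself had log2 fold changes of 0.28, −0.18 and −0.22 in HSC, MPP1 and MPP4 (SE 0.23, 0.23 and 0.20; edgeR adjusted p of 0.714, 0.999 and 0.901), a transcript level that does not check a missense change. In HSC, the log2 fold change was 0.58 for Uhrf1 (SE 0.30, edgeR adjusted p = 0.522), 0.45 for Ctcf (SE 0.23, adjusted p = 0.515), 0.11 for Trim28 (SE 0.23, adjusted p = 0.902) and 0.20 for Cdkn1c (SE 0.30, adjusted p = 0.857).

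**Figure D3:**
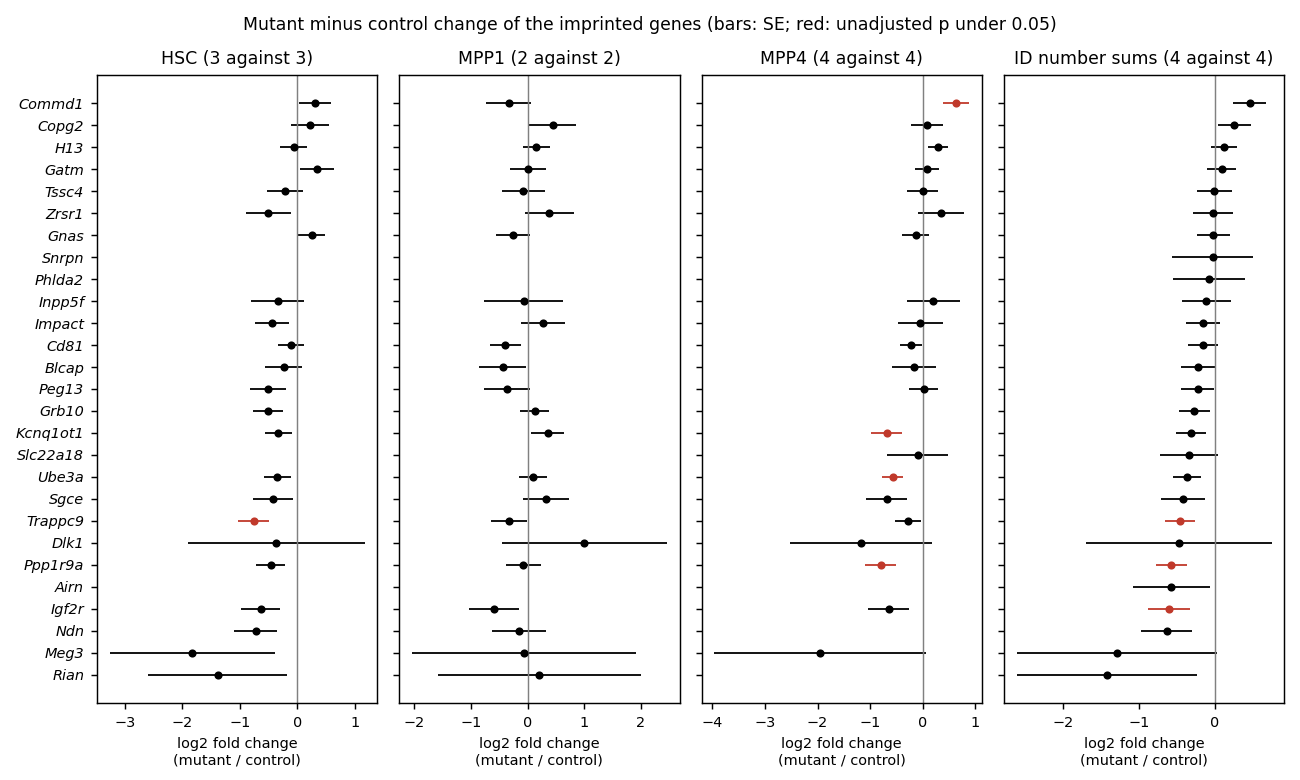
Log2 fold changes, mutant over control, with standard errors, of the imprinted genes tested in HSC, MPP1 and MPP4 and after summing counts by ID number, one row per gene in the order of the sums. Red points have an unadjusted p under 0.05 and none passes after adjustment; Meg3, Rian and Dlk1 have the widest bars, with standard errors above 1.

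Of the tested imprinted genes with a mean of at least 20 CPM, those of the Dlk1-Meg3 cluster on chromosome 12 varied most between libraries of the same group. Meg3, Rian and Mirg are noncoding RNAs of the maternal copy, Rian being a host of small nucleolar RNAs and Mirg of microRNAs, and Dlk1 is a paternally expressed membrane protein related to Notch ligands. These 4 genes are singled out here because of their levels, so they get no test beyond the comparisons of genotypes and populations. Among 7701 genes with a mean of at least 20 CPM, the standard deviation of log2 levels within groups was 0.45 at the median gene, and 2.66 for Meg3 (rank 40), 2.12 for Dlk1 (rank 66) and 1.98 for Rian (rank 74). In HSC, Meg3 had 147, 224 and 38.4 CPM in mutants, against 1072, 47.0 and 638 CPM in controls. In MPP4 it had 14.0, 129, 10.4 and 151 CPM in mutants, against 620.0, 111.6, 0.79 and 633 CPM in controls. Mutants and controls overlapped in both populations, and the log2 fold changes of −1.83 in HSC and −1.95 in MPP4 came with standard errors of 1.43 and 2.01 (edgeR adjusted p = 0.75 and 0.923). With 1 library left out, they ran from −2.99 to −0.65 in HSC and from −3.15 to −0.0096 in MPP4. In MPP1, Meg3 had 59.8 and 442 CPM in mutants, against 41.4 and 518 CPM in controls, and a log2 fold change of −0.06. Over the ID numbers it was −1.29, and −2.12 to −0.040 with 1 number left out.

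Summed by number, Meg3 had 229, 131, 92.4 and 36.1 CPM in mutants C2, B, A and C1, against 741, 578, 113 and 29.1 CPM in controls A, C2, B and C1. Xist, the noncoding RNA of the inactive X chromosome in female cells, had 2367, 1711, 7.48 and 12.5 CPM in mutants C2, B, A and C1, against 2089, 2755, 6.38 and 0.81 CPM in controls A, C2, B and C1. In each genotype the 2 numbers with high Xist were the 2 with the most Meg3. High Xist marks 1 of 3 HSC mutants and 2 of 3 HSC controls, but equal numbers of both genotypes in MPP1 and MPP4. Within batches A and B, however, mutant and control were opposite in Xist. It stood at 8.19 against 1313 CPM in HSC of batch A. In MPP4 it stood at 6.38 against 2384 CPM in batch A and 1683 against 6.30 CPM in batch B. Genotype and Xist level cannot be told apart within these batches, which includes the batch A and B values of other members above. With the Xist level as a term, a choice made after seeing the data, 17 of 23 imprinted genes had a fold change below 0 in HSC. The Meg3 fold change was called in no population with or without this term, so that outcome does not tell whether it followed Xist.

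Rian followed Meg3 within batch C, where each ID number has all 3 populations. It had 14.8, 44.4 and 9.12 CPM in HSC, MPP1 and MPP4 of mutant C2 and 0, 10.9 and 0 CPM in those of mutant C1. In controls it had 46.4, 57.9 and 89.9 CPM in HSC, MPP1 and MPP4 of control C2 and 3.68, 4.51 and 0.79 CPM in those of control C1. In every population the Xist-high number had the higher Rian level. Dlk1 followed the same order in controls only, with 166, 78.5 and 274 CPM in control C2 and 5.53, 7.52 and 2.37 CPM in control C1. In mutants it had 63.5, 59.2 and 50.6 CPM in mutant C2 and 155, 84.2 and 38.9 CPM in mutant C1, without a common order. In MPP1 the Dlk1 value depended on 1 library: its log2 fold change was 1.004 (SE 1.46, edgeR adjusted p = 0.999), and 3.22 without MPP1 control 2 (adjusted p = 3.68e-06), where the lone remaining control is assumed to vary like the mutants.

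Meg3 (chromosome 12, 109541001 to 109571726, plus strand, GRCm38) and Dlk1 (109452823 to 109463336, plus strand) are shown by their promoter windows, because these genes of the cluster varied most within groups. The windows, from RefSeq (GRCm38.p6) and on the plus strand with CG in capitals, are chr12:109540746-109541045 for Meg3, with 13 CG and 1 match to TGCCGC, and chr12:109452573-109452872 for Dlk1, with 9 CG and no match. A second Meg3 window in the table, chr12:109545148-109545447, holds 1 CG and no match and is not printed.
Meg3 upstream promoter: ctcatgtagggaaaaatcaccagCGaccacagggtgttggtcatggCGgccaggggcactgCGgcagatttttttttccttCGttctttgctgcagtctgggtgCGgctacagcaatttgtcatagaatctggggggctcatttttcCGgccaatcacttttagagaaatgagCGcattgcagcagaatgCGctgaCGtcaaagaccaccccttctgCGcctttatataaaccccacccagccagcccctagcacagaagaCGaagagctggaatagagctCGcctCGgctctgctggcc
Dlk1 promoter: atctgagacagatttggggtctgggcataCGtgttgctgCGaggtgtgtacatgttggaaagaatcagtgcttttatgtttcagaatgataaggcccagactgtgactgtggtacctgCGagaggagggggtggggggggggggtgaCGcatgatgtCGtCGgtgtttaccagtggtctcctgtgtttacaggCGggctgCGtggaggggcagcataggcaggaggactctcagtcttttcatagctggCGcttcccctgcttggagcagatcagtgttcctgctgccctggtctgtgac

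**Figure D4:**
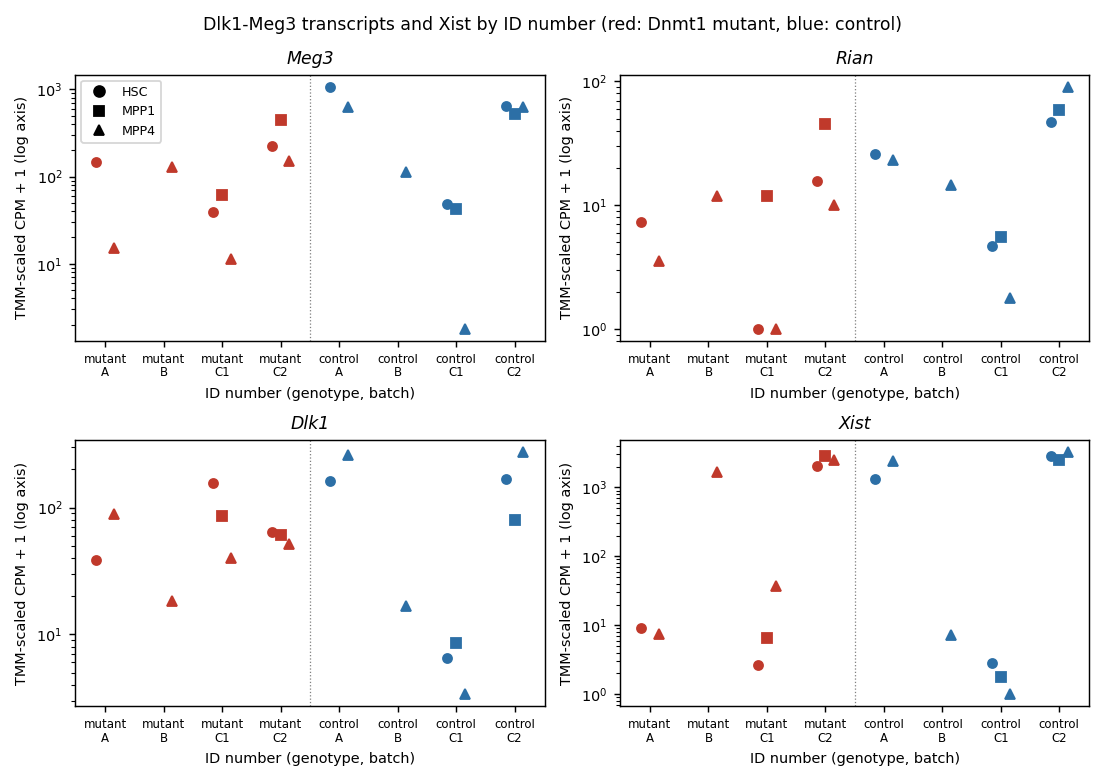
Levels of Meg3, Rian, Dlk1 and Xist (TMM-scaled CPM + 1, log axes) by ID number, mutants (red) left of controls (blue); symbols give the population. Meg3 reaches 518 CPM or more only in libraries of controls A and C2, and Xist reaches 1313 CPM or more in all libraries of mutants B and C2 and controls A and C2 and in no other.

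The authors' deposited tables of mutant against control held no call among the imprinted genes. Their lowest adjusted p-values for a member were 0.9999 in HSC, 0.9984 in MPP1 and 0.9996 in MPP4, and the lowest unadjusted p-value there was that of Rian in MPP4 (p-value 0.0498, log2 fold change −0.80).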

How the data were processed

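Imprinted genes were read from 18 CEL-Seq2 libraries. The deposited tables hold an estimated count per gene, made by the authors from molecular identifiers and not scaled to depth, per the labels' protocols. The genome mm10 and the tools R 3.4.0 and DESeq2 come from the submitters' processing notes; neither a counting program nor its use of strand is given in the sources used here. For each population, the authors' deposited comparison tables give, per the file headers, a mean signal, log2 fold changes, a test score and p-values. Counts, already whole numbers, were tested with edgeR 4.0.16 (robust quasi-likelihood, TMM, R 4.3.3) on all genes past a minimum count of 10, with Benjamini-Hochberg adjustment over all genes tested at a threshold of 0.05 and a batch term (none in MPP1). Control populations and differences of the effect came from a joint fit of the 18 libraries blocked by ID number. Alternatives used DESeq2 1.42.0, no filter, a minimum count of 30, no batch term, batch C alone, the replicate block, the Xist level and each library or ID number left out. The list and all other lists were chosen with earlier results of these data known. Fold changes were named for called members, the 10 lowest unadjusted p over the ID numbers and the 3 lowest in each population. Deviations of same-numbered libraries from their group means had correlations of 0.519, 0.22 and 0.268 in HSC, and of −0.173 to 0.413 in MPP4. Replicate 1 of both HSC genotypes is of batch A, so pairing and batch cannot be told apart there. The replicate numbers also join other ID numbers in HSC than in MPP1 and MPP4. They are not established as pairs, and the replicate block served only as an alternative. Limits from 3 counts cover counting error only. The genotype comparisons and the contrast of MPP4 against HSC controls were also run on simulated counts, and the other contrasts were not. The simulated libraries were independent and held no batch or ID number effect.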

Additional observations from a re-analysis of the deposited data

Results flagged for a closer look

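In 3 of 42 groups of 4 libraries, 1 library lay far from the others, measured as its gap to the nearest other library over the range of the group; chance alone flags about 1 in 20 groups. Ube3a was low in MPP4 mutant 1, at 119 CPM against 213 to 224 CPM in the other mutants (gap over range 0.895). Copg2 was high in MPP4 control 3, at 52.2 CPM against 24.5 to 28.4 CPM in the other controls (0.861). Zrsr1 was high in MPP4 control 2, at 18.01 CPM against 7.90 to 8.68 CPM in the other controls (0.923).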

How the results depend on the processing

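No alternative run made edgeR or DESeq2 call an imprinted gene between genotypes, except that edgeR called Dlk1 without MPP1 control 2 (0 to 1 members over the MPP1 libraries left out). Of all genes in HSC, 0.0522% were called with DESeq2, 0.532% without a filter, 0.217% at a minimum count of 30, 0.0547% without batch and 0.437% with the replicate block, against 0.241%. In MPP1 the share was 0.201% without a filter, 0.137% at the minimum of 30, 0.537% with the replicate block and 0.725% with Xist, against 0.225%. In MPP4 it was 0.272% with DESeq2, 0.369% without a filter, 0.0319% without batch and 0.192% with Xist, against 0.0852%. Over the ID numbers it was 0.167% with DESeq2, 0.447% without a filter, 0.0809% at the minimum of 30 and 0.0454% without batch, against 0.227%. Leaving out 1 library or number gave 0.147% to 0.82% in HSC, 0.26% to 0.885% in MPP1, 0.0107% to 0.214% in MPP4 and 0.0887% to 0.266% over the numbers. Members below 0 moved with the number tested: 30 of 43 in HSC with DESeq2 or no filter and 12 of 16 at the minimum of 30; 19 with DESeq2, 20 without a filter and 5 at the minimum of 30 in MPP1; 33 with DESeq2 and 35 without a filter in MPP4. The replicate block changed no call on a member.

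Between control populations, leaving out 1 number gave 4.29% to 11.7% of genes and 2 to 8 members for MPP4 against HSC, 0.597% to 4.72% and 1 to 4 members for MPP4 against MPP1, and 0.149% to 0.405% of genes for MPP1 against HSC. With batch in place of the number and no replicate block, 2.07% were called for MPP4 against MPP1 and 0.0283% for MPP1 against HSC, where no filter gave 0.269%. Differences of the effect gave 0.00758% for MPP1 against HSC and 0.0682% for MPP4 against HSC without a filter, 0% for MPP4 against HSC with batch in place of the number and so no replicate block, and, with 1 number left out, 0% to 0.0952% for MPP4 against HSC and 0% to 0.0373% for MPP4 against MPP1.

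The log2 fold changes that turned sign were uncalled in the main comparison, and the cause was not tested. They were 0.59 (batch C alone) and 0.43 (Xist) for Dlk1 in HSC, −0.13 (DESeq2), −0.036 (replicate block) and −0.19 (Xist) for Rian and 0.038 (replicate block) for Meg3 in MPP1, and −0.33 for Copg2 and −0.020 for Trim28 (batch C alone) in MPP4. Over the numbers they were 0.21 (batch C alone) and 0.20 (Xist) for Dlk1, and −0.048 (no filter) and −0.0024 (minimum of 30) for Trim28. With 1 library or number left out they ran, in HSC, from −1.29 to 0.60 for Dlk1, −0.21 to 0.024 for Cd81 and −0.088 to 0.45 for Cdkn1c. In MPP1 they ran from −0.63 to 0.37 for Ppp1r9a, −0.37 to 0.26 for Ndn, −0.032 to 0.27 for Grb10, −0.75 to 0.15 for Cd81, −0.16 to 3.22 for Dlk1 and −1.25 to 2.63 for Rian, and from −0.65 to 0.13 for Trim28, −0.23 to 0.43 for Ctcf, −0.10 to 0.35 for Ube3a, −2.18 to 2.64 for Meg3, −0.82 to 0.0092 for Trappc9, −0.90 to 0.021 for Commd1 and −0.49 to 0.92 for Sgce. In MPP4 they ran from −0.085 to 0.44 for Copg2, −0.12 to 0.21 for Trim28 and −1.72 to 0.44 for Dlk1. Over the numbers they ran from −1.10 to 0.61 for Dlk1 and −0.12 to 0.13 for Trim28, and for MPP1 against HSC controls from −0.026 to 0.30 for Igf2r and −0.31 to 0.22 for Ndn.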
